A study of Mus musculus with 12 samples.

Results

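Tcap, which encodes the titin cap protein telethonin, was described in mouse hearts together with titin and other genes of the Z-disc and M-band. The genes were those probe sets of the deposited array table that carried 1 gene symbol out of Tcap, Ttn, Actn2, Myoz2, Ldb3, Csrp3, Myom1, Des, Nexn and Myot. Of these 10 genes, 9 had a probe set, 13 probe sets in all, among 12393 genes on the array; Nexn, which encodes the actin-binding protein nexilin, had none with that symbol alone. The level filter kept 12 of the 13 probe sets and all 9 genes, within the 8101 genes tested. The genes had been chosen by the Tcap signals of wake and sleep hearts in these same arrays, so their differences between wake and sleep are given as a description with no test.

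RNA from hearts of C57Bl/6 mice was measured on 12 single-colour arrays in 4 groups of 3 mice, labelled as biological replicates. The labels name no genetic change. Zeitgeber time (ZT) counts hours, by the usual convention from lights on. Wake-time mice had surgery between ZT 13 and 15 and were collected at ZT 23; sleep-time mice had surgery between ZT 1 and 3 and were collected at ZT 11. At each time 3 mice had myocardial infarction (MI) surgery and 3 had sham surgery, and hearts were taken 8 h later. For MI hearts the labels speak of infarcted myocardium; for sham hearts they name no region. Time of surgery and time of collection moved together, so they cannot be told apart. In RNA from whole tissue, fewer cells of a type and less RNA per cell cannot be told apart either.

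The sarcomere is the contractile unit of heart muscle, and the Z-disc is the plate at each of its ends where actin filaments of opposite polarity are crosslinked. Titin runs from the Z-disc to the M-band at the centre, and telethonin joins the ends of neighbouring titin molecules inside the Z-disc. The Z-disc also holds proteins that take part in stretch and calcineurin signalling, and in the heart mutations in several of its genes are known causes of cardiomyopathy.

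The values are MAS5 signals, a linear brightness scale on which the arrays had been brought to a common trimmed mean. Differences are in log2(signal + 16), which understates changes of dim probe sets. Median signal was 32.7 to 34.7 per array, and correlations between arrays of a group were 0.974 to 0.988, with no array present in duplicate. The 12 ventricular cardiomyocyte marker genes were all above the filter, with summed signals of 80982 to 113044 over the arrays. Of 12 skeletal muscle markers, a list that includes Myot, 8 were below the filter, among them the fast myosins Myh1, Myh2 and Myh4. The 4 above it were Acta1 (group means 1690 to 2540), Myot (344 to 404), Mylpf (14.3 to 23.1) and Pvalb (11.8 to 22.8). The ratio of 3' to 5' beta-actin signal, a sign of RNA quality, was 1.77 to 1.81 in wake sham hearts and higher in every other array, 1.94 to 2.49 in sleep sham, 2.17 to 3.31 in wake MI and 2.09 to 2.92 in sleep MI hearts.

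Promoter windows, from 250 bases before to 50 bases after the transcript start, were taken from RefSeq (GRCm38.p6). Windows were present for 7 of the 10 genes (Ttn, Actn2, Myoz2, Ldb3, Csrp3, Myom1 and Des), 9 windows in all. Tcap, Nexn and Myot had no window. The E-box CACGTG, which the clock proteins CLOCK and BMAL1 are known to bind, was searched on both strands, as were the D-box TTATGTAA, bound by DBP and its relatives, the MEF2 motif and the CArG box of serum response factor. Actn2 was the only gene of the 7 with an E-box, which is held by 7.15% of the 32851 windows of 300 bases in the table. A MEF2 motif (0.557% of all windows) was found in the Ttn and Myoz2 windows and a CArG box (1.63%) in those of Ldb3 and Myom1; no window of the 7 genes held the D-box (0.938%). The Actn2 window (chr13:12340683-12340982, minus strand) is shown for its E-boxes, in capitals, which begin 84 and 48 bases before the start. The Ttn window (chr2:76982498-76982797, minus strand) is shown as that of the protein telethonin caps, with the MEF2 motif in capitals 166 bases before the start. A match in these windows is a description of the letters, not a binding site.
Actn2: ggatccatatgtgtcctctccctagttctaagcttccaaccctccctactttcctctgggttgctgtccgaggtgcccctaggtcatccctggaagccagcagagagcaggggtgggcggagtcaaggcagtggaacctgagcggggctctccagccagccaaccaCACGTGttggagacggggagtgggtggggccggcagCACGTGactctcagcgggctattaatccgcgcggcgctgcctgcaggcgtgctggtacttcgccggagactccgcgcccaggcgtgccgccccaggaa
Ttn: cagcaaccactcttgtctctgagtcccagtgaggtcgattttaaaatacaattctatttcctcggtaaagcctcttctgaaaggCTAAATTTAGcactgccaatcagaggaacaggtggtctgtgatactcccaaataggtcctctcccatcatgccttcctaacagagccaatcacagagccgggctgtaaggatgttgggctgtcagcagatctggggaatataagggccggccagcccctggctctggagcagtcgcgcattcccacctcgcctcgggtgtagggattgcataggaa

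Tcap signal followed the time of day in both the sham and the MI hearts, and the other 8 genes did not show a difference of that size. In sleep sham hearts Tcap signal was 5412, 4713 and 5547 (mean 5220 ± 448, SD, n = 3). In wake sham hearts it was 2301, 2117 and 2261 (2230 ± 96.8, SD, n = 3). Every wake sham heart was thus below every sleep sham heart, by 2.33-fold on the scale used, a log2 difference of -1.22 (SE 0.09). This stood 40th from the lowest among the 8101 genes, but Tcap was put forward for this contrast, so nothing is read from the rank. In sleep MI hearts Tcap signal was 4627, 4804 and 5074 (4830 ± 225, SD, n = 3). In wake MI hearts it was 3298, 3135 and 3129 (3190 ± 96.2, SD, n = 3). The MI hearts were likewise separate by time, with the wake hearts lower by 1.51-fold, a log2 difference of -0.60 (SE 0.09). The order of Tcap levels was sleep sham, sleep MI, wake MI and wake sham, and the sleep sham and sleep MI hearts, whose signals overlapped, were the only neighbours in that order not set apart.

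**Figure D1:**
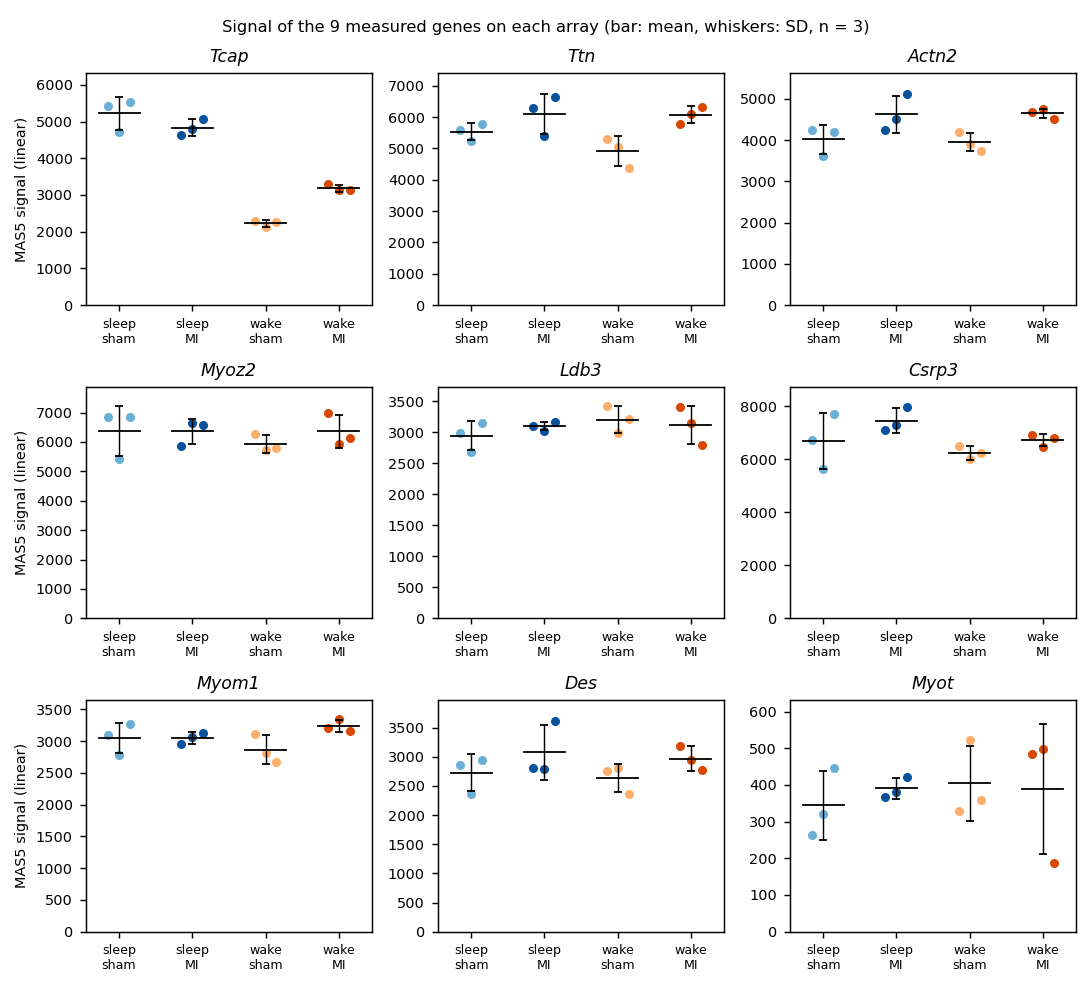
MAS5 signal (linear, vertical axis from 0) of the 9 measured genes on each of the 12 arrays, by group; points are hearts, horizontal bars the mean of 3 and whiskers the SD. Tcap falls into 3 levels, with sleep hearts from 4627 upward, wake MI near 3190 and wake sham near 2230, while the groups of the other genes lie close together.

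Among the genes that anchor filaments at the Z-disc, Ttn and Actn2 had overlapping wake and sleep groups. Ttn, the giant elastic protein, had signals of 5598, 5246 and 5774 in sleep sham and 5317, 5038 and 4374 in wake sham hearts. In sleep MI hearts Ttn signal was 6279, 5402 and 6630, and in wake MI hearts 5793, 6114 and 6332. The 2 times overlapped in both kinds of heart, with log2 wake minus sleep differences of -0.18 (SE 0.10) in sham and 0.00 (SE 0.10) in MI hearts. Actn2, the alpha-actinin that crosslinks actin, had signals of 4249, 3618 and 4194 in sleep sham and 4197, 3914 and 3746 in wake sham hearts. In sleep MI hearts Actn2 signal was 4241, 4502 and 5127, and in wake MI hearts 4678, 4741 and 4520. Its time-of-day differences were -0.02 (SE 0.10) in sham and 0.01 (SE 0.10) in MI hearts, with overlapping groups.

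Of the Z-disc signalling and scaffold proteins, Csrp3, the muscle LIM protein, and Myoz2, the calcineurin-binding calsarcin, had their widest spread among sleep sham hearts. Csrp3 signal was 6739, 5630 and 7722 in sleep sham, 6524, 6009 and 6226 in wake sham, 7100, 7307 and 7987 in sleep MI and 6929, 6487 and 6801 in wake MI hearts. The wake MI hearts were all below the sleep MI hearts, by a log2 difference of -0.15 (SE 0.11), while the sham hearts overlapped (-0.09, SE 0.11). Myoz2 signal was 6858, 5406 and 6856 in sleep sham, 6283, 5734 and 5784 in wake sham, 5878, 6638 and 6570 in sleep MI and 6990, 5944 and 6146 in wake MI hearts. Its groups overlapped at both comparisons, with differences of -0.10 (SE 0.11) in sham and 0.00 (SE 0.11) in MI hearts.

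Myom1, a myosin-binding protein of the M-band, and Des, the intermediate filament that links Z-discs to each other, had small mean differences by time of day. Myom1 signal ranged from 2788 to 3264 in sleep sham, 2672 to 3116 in wake sham, 2955 to 3133 in sleep MI and 3158 to 3344 in wake MI hearts. Wake MI hearts were all above sleep MI hearts for Myom1, by a log2 difference of 0.08 (SE 0.09), against -0.09 (SE 0.09) in overlapping sham hearts. Des signal, on its brighter probe set 1426731_at, ranged from 2362 to 2952 in sleep sham, 2359 to 2804 in wake sham, 2797 to 3619 in sleep MI and 2771 to 3193 in wake MI hearts. Both Des differences were -0.04 (SE 0.12), with overlapping groups. Myot, the actin-bundling protein myotilin, was the most variable of the genes, with signals of 484, 499 and 186 in the wake MI hearts alone. Its time-of-day differences of 0.23 in sham and -0.12 in MI hearts had an SE of 0.30 each.

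Set side by side, the 8 genes other than Tcap had log2 wake minus sleep differences of -0.18 to 0.23 in sham hearts (median -0.07) and of -0.15 to 0.08 in MI hearts (median 0.00). Over all 8101 genes the median difference was 0.02 in sham and 0.01 in MI hearts, with median sizes of 0.13 and 0.11. In sham hearts 1 of the 9 genes, Tcap, had groups that did not overlap, against 20.0% of all genes (8.12% lower). In MI hearts these were 3 of 9, Tcap and Csrp3 lower and Myom1 higher at wake, against 10.9% of all genes. These counts use the contrast for which the genes were put forward, and nothing is read from them.

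**Figure D2:**
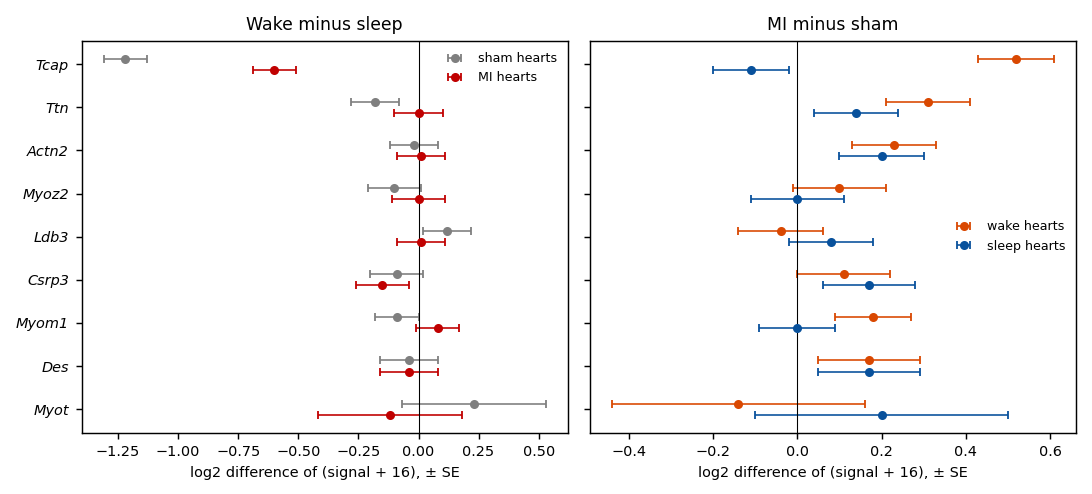
Difference in log2(signal + 16) of each gene, with SE whiskers from the fit over 12 arrays; left, wake minus sleep in sham (grey) and MI (red) hearts, and right, MI minus sham in wake (orange) and sleep (blue) hearts. Tcap lies at -1.22 and -0.60 on the left, where the 8 other genes lie between -0.18 and 0.23.

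Tcap was also set against the other 8 genes within each array, as its log2 value minus the median of theirs, both relative to the mean of the sleep sham hearts. This within-array difference was 0.00, -0.01 and 0.01 in the sleep sham hearts, closer together than Tcap alone (SD 0.01 against 0.13, n = 3). In the other groups subtraction changed the SD little, to 0.05 from 0.06 in wake sham, with 0.04 before and after in wake MI and 0.07 in sleep MI hearts. It was -1.29, -1.26 and -1.19 in wake sham, -0.85, -0.92 and -0.85 in wake MI and -0.22, -0.21 and -0.34 in sleep MI hearts. On this scale none of the 4 groups overlapped, and the sleep MI hearts stood below the sleep sham hearts (-0.26 ± 0.07 against 0.00 ± 0.01, SD, n = 3 each). The median of the 8 other genes was itself 0.15 higher in sleep MI and 0.16 higher in wake MI than in sleep sham hearts, and 0.03 higher in wake sham hearts. The array of sleep sham replicate 2 was the lowest of its group for 7 of the 8 other genes and for Tcap.

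**Figure D3:**
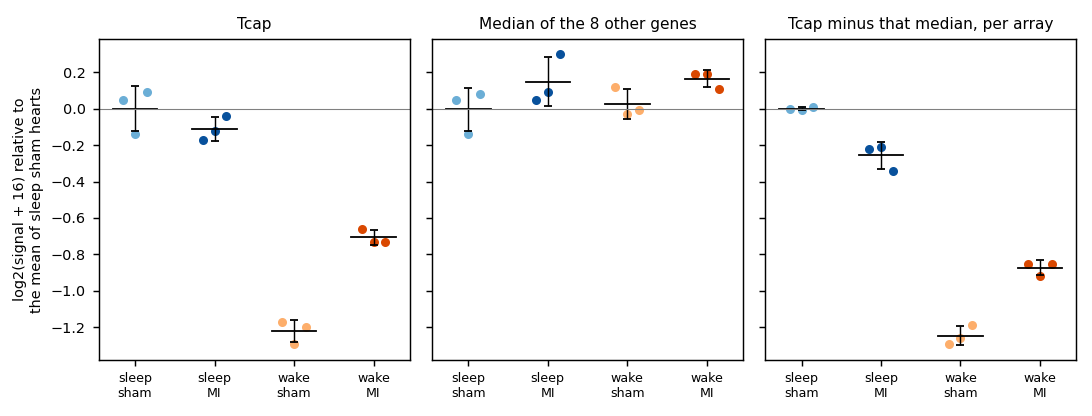
log2(signal + 16) relative to the mean of the sleep sham hearts for Tcap (left), the median of the 8 other genes (middle) and Tcap minus that median within each array (right); points are the 12 hearts, bars group means and whiskers SD. In the right panel the groups lie at 0.00, -0.26, -1.25 and -0.87 from left to right.

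How the genes varied together was described over all arrays and within groups. Over the 12 arrays Tcap correlated with Csrp3 at r = 0.55, with Ttn at 0.51, with Actn2 at 0.26 and with Ldb3 at -0.29. After each gene's group means were subtracted, Tcap correlated with Csrp3 at 0.92, with Myoz2 at 0.90, with Actn2 at 0.80, with Ldb3 at 0.78, with Myom1 at 0.69 and with Des at 0.68, but with Ttn at 0.25 and with Myot at 0.10. The 28 pairs among the 8 other genes had a median r of 0.55 over the 12 arrays, group differences included (-0.10 to 0.88). These correlations are descriptions over 12 arrays, and the points share the group and each array its RNA and scaling. How many of all genes reach such values after the subtraction was not counted, so nothing particular to these genes is read from them.

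The effect of infarction was tested with limma over all 8101 genes, with Benjamini-Hochberg adjustment. In wake hearts Tcap signal rose 1.43-fold after MI (log2 0.52, SE 0.09, 95% interval 0.33 to 0.70, adjusted p = 0.00177), and all 3 MI hearts were above all 3 sham hearts. Ttn rose 1.24-fold in wake hearts (log2 0.31, SE 0.10, adjusted p = 0.0439), also without overlap. Actn2 and Myom1 too were higher in each wake MI heart than in any wake sham heart, but with log2 differences of 0.23 (adjusted p = 0.105) and 0.18 (adjusted p = 0.187) they did not pass. These 2 calls among 9 genes compare with 18.4% of all genes called in wake hearts (7.76% called higher). The 4 genes without overlap compare with 35.1% of all genes (13.6% higher). The wake sham hearts of this comparison are also those in which Tcap was lowest when the genes were put forward, so the Tcap test is not independent of that choice.

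In sleep hearts no gene of the 9 passed, against 2.67% of all genes, and none had an unadjusted p below 0.05 in limma, against 1389 of the 8101 genes. Tcap differed by -0.11 between sleep MI and sleep sham hearts (SE 0.09, 95% interval -0.30 to 0.08, adjusted p = 0.576). The sleep sham hearts are also those in which Tcap was highest when the genes were put forward. This Tcap test, too, is not independent of that choice. Actn2 differed by 0.20 (95% interval -0.01 to 0.41, adjusted p = 0.308), close to its value in wake hearts. The difference between the wake and the sleep effect of MI was 0.62 for Tcap (SE 0.12), 0.18 for Ttn (SE 0.14) and 0.03 for Actn2 (SE 0.14). That difference rests on the same 4 means as the time-of-day pattern and was not tested for these genes. In limma 0 of all 8101 genes passed for it, with 850 at an unadjusted p below 0.05.

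Over both times together Tcap (log2 0.20, SE 0.06, adjusted p = 0.0306), Ttn (0.22, SE 0.07, adjusted p = 0.0367) and Actn2 (0.22, SE 0.07, adjusted p = 0.0349) were called higher after MI. These 3 of 9 compare with 22.1% of all genes called (8.48% higher). All 9 differences were above 0, with a median of 0.14 against -0.06 over all genes. The share of all genes above 0 was not counted. A similar median, 0.12, was found for the 12 ventricular cardiomyocyte markers, with 0 called. It was also 0.12 for the 12 thick and thin filament genes, with 1 called, so the shift was not particular to the 9 genes. Des (0.17, adjusted p = 0.175) and Csrp3 (0.14, adjusted p = 0.201) had similar sizes without passing. For Myoz2, Ldb3 and Myot the differences were 0.05, 0.02 and 0.03.

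These 3 calls were close to the threshold. Tcap lost its call over both times when any of 6 arrays was left out (replicates 1 and 2 of wake MI, 2 and 3 of wake sham, 2 and 3 of sleep MI), with values of 0.19 to 0.21. Among these, leaving out the first of the wake MI or the second of the sleep MI hearts kept Ttn alone called over both times, and leaving out any of the other 4 kept none of the 9 genes. The Tcap call in wake hearts held with each array left out (0.48 to 0.54), and that of Ttn was lost for 8 of the 12 arrays: each of the wake hearts, and the first sleep MI and first sleep sham heart.

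When the beta-actin ratio entered the fit as a covariate, the Tcap time-of-day differences were -1.21 in sham and -0.60 in MI hearts. The wake MI effect on Tcap was then 0.49 (adjusted p = 0.0516 in limma) and that on Ttn 0.20 (adjusted p = 0.458), while 272 of 8101 genes were called in wake hearts in place of 1493. Ventricular cardiomyocyte markers summed to a mean of 93081 in wake sham and 102078 in wake MI hearts. In sleep sham and sleep MI hearts the means were 99889 and 105193, and the ranges overlapped at both times. Marker sums of other cells also moved in the wake hearts. Fibroblast markers (8 of 8 above the filter) summed to 8254 to 12630 in wake sham and 5735 to 7448 in wake MI hearts. Atrial markers (5 of 7 above the filter, Bmp10 and Dkk3 below) summed to 1963 to 15343 in wake sham and 1209 to 1652 in wake MI hearts. Of 6 tested neutrophil and monocyte markers 5 rose and 1, Lyz2, fell after MI in wake hearts. Their sums were 2297 to 3317 in wake sham and 2106 to 2450 in wake MI hearts. Lyz2 was the largest part of these sums, with means of 2310 in wake sham and 1100 in wake MI hearts. Among the 5 that rose, S100a8 went from a mean of 124 to 439 and S100a9 from 163 to 540. The part of these markers in the Tcap and Ttn differences was not tested.

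Probe sets of the same gene differed for Ldb3, the PDZ and LIM domain protein ZASP, also called Cypher, which binds alpha-actinin. The brightest probe set, 1416752_at, read 2985, 2691 and 3153 in sleep sham and 3425, 2983 and 3209 in wake sham hearts, a difference of 0.12 (SE 0.10). It read 3101, 3030 and 3164 in sleep MI and 3408, 3147 and 2804 in wake MI hearts, overlapping all other groups. The dim probe set 1451999_at read 201, 189 and 284 in sleep sham, 171, 148 and 156 in wake sham, 219, 245 and 236 in sleep MI and 279, 301 and 211 in wake MI hearts. On this probe set the wake sham hearts were below every other heart. It rose 1.59-fold with MI in wake hearts (log2 0.67, SE 0.15, adjusted p = 0.0107 over 13576 probe sets in limma), and its difference in sleep hearts was 0.07 (adjusted p = 0.873). Its log2 wake minus sleep difference was -0.45 (SE 0.15) in sham and 0.15 (SE 0.15) in MI hearts. The middle probe set, 1433783_at, differed by -0.06 in wake and -0.14 in sleep hearts after MI (adjusted p = 0.788 and 0.646). The table does not say which Ldb3 transcripts each probe set reads.

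**Figure D4:**
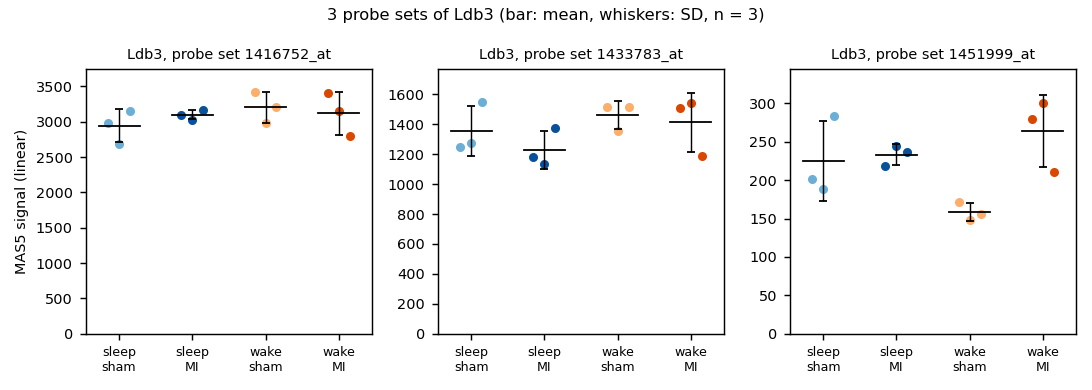
MAS5 signal (linear, vertical axis from 0, a scale of its own in each panel) of the 3 Ldb3 probe sets in the 12 hearts by group; points are hearts, bars the mean of 3 and whiskers the SD. The wake sham hearts are lowest, at 148 to 171, only on probe set 1451999_at.

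The second Ttn probe set, 1427446_s_at, read 4400, 3605 and 4404 in sleep sham, 4490, 3853 and 3626 in wake sham, 4393, 4230 and 5113 in sleep MI and 4623, 4827 and 4804 in wake MI hearts. As on the first, every wake MI heart was above every wake sham heart, but the log2 difference of 0.26 (SE 0.11) did not pass over the 13576 probe sets (adjusted p = 0.125).

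The genes whose pattern over the 12 arrays was most like that of Tcap were named by Pearson correlation. They were Tspan4, a tetraspanin (r = 0.93), the clock output factor Dbp (0.91), Slc25a33, a mitochondrial carrier (0.90), the REV-ERB repressor Nr1d2 (0.87), Gdap10 (0.87), the related Nr1d1 (0.86), Stc1 (0.85) and the metalloproteinase inhibitor Timp3 (0.84). Tspan4 signal was 270 to 418 in sleep sham, 323 to 350 in sleep MI, 215 to 267 in wake MI and 108 to 134 in wake sham hearts. Tspan4, Dbp, Slc25a33, Gdap10 and Stc1 had the same order of group means as Tcap, and Nr1d2, Nr1d1 and Timp3 did not. The genes least like it were Gtf2ird1 (-0.97), Mlxipl (-0.90), Gramd4 (-0.90) and Arntl, which encodes BMAL1 (-0.90). Gtf2ird1 signal was 54.5 to 57.5 in sleep sham, 52.9 to 57.9 in sleep MI, 71.6 to 87.6 in wake MI and 101 to 108 in wake sham hearts. After subtraction of group means the 8 most similar genes correlated with Tcap at -0.47 (Timp3) to 0.18 (Nr1d1), with Tspan4 at -0.16 and Dbp at 0.05, and the 4 least similar at -0.76 (Mlxipl) to 0.40 (Arntl). Csrp3 stood at 0.92 on that measure. The correlations are descriptions over arrays that share their groups.

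**Figure D5:**
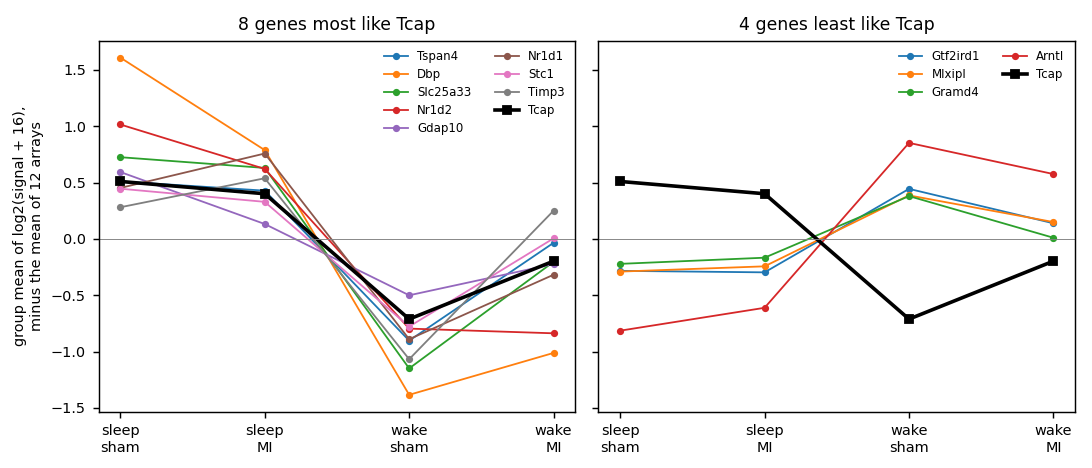
Group means of log2(signal + 16) minus the mean of the 12 arrays (vertical axis) in the 4 groups (horizontal axis, 3 hearts each) for Tcap (black) with the 8 genes of highest correlation (left) and the 4 of lowest (right). Dbp spans the widest range on the left, and in Gtf2ird1 and Arntl the wake sham hearts are highest where Tcap is lowest.

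Of the 8 most similar genes 7 had promoter windows, 8 windows in all. The E-box CACGTG was held by 2 of these, that of Slc25a33 and 1 of Tspan4, against 7.15% of all windows. The other Tspan4 window and those of Dbp, Nr1d2, Gdap10, Nr1d1 and Timp3 held none. Among the 4 least similar genes Mlxipl and Gramd4 held it, and Gtf2ird1 and Arntl did not. The windows of Tspan4 (chr7:141476130-141476429, plus strand) and Slc25a33 (chr4:149774218-149774517, minus strand) are shown, with the E-box in capitals beginning 51 and 8 bases before the start. Whether the motif has a part in any time-of-day difference was not tested.
Tspan4: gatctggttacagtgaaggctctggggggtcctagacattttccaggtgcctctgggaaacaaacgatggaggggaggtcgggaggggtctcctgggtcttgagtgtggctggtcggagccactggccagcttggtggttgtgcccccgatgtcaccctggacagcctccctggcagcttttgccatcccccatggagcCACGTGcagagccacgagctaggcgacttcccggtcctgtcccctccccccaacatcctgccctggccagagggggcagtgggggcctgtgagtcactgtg
Slc25a33: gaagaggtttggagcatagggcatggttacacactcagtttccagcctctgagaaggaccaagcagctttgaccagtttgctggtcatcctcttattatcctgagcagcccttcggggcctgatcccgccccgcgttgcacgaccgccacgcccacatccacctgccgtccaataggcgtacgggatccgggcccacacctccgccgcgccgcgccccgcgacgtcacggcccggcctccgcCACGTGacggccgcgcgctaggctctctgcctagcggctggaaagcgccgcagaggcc

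Other genes of the sarcomere were given by lists without the 10 genes. Of 21 tested Z-disc and I-band partners 9 rose after MI over both times and none fell, where 8.48% of all genes were called higher and 22.1% called in all (median log2 0.18 against -0.06 over all genes). Xirp1, an actin-binding protein of the intercalated disc, rose by a log2 difference of 2.04 (SE 0.12, adjusted p = 3.34e-07). The calcineurin inhibitor Rcan1 rose by 1.33 (SE 0.15, adjusted p = 5.55e-05), filamin C (Flnc) by 1.61 (SE 0.19, adjusted p = 8.9e-05) and Nrap, which serves in myofibril assembly, by 0.52 (SE 0.06, adjusted p = 0.000124). The Tcap difference over both times, 0.20, was smaller than each of these.

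Beside the same 8.48% of all genes called higher, 1 of 6 M-band and titin kinase partners, the LIM protein Fhl1, rose after MI (0.73, adjusted p = 0.00224). Of 12 thick and thin filament genes 1 rose, leiomodin Lmod2 (0.59, adjusted p = 0.00224). With the beta-actin covariate Lmod2 was at 0.50 (adjusted p = 0.0521). Of 11 intermediate filament and costamere genes Vcl, vinculin (0.45, adjusted p = 0.00232), and Lmna, the A-type lamins (0.38, adjusted p = 0.00605), rose. Lmna was at 0.02 (adjusted p = 0.842) when its probe sets were averaged and at 0.26 (adjusted p = 0.117) with the beta-actin covariate. Averaged probe sets gave 2 called genes of the M-band and titin kinase list and 2 of the filament list. Array weights gave 2 of the M-band and titin kinase list. No gene of these 3 lists fell.

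By time of day, none of these sarcomere genes passed. Among sham hearts 0 of the 21 Z-disc and I-band partners were called in limma, against 1.52% of all genes. Of these partners 2 had an unadjusted p below 0.05, against 1087 of the 8101 genes. The counts were also 0 of 6 M-band and titin kinase partners (1 unadjusted), 0 of 12 filament (2) and 0 of 11 costamere genes (1). In MI hearts the 4 lists again gave 0 calls, against 0.0741% of all genes called. At an unadjusted p below 0.05 in limma they had 2, 0, 0 and 2 genes, against 539 of the 8101 genes. A p that misses the threshold does not show equal levels, and some differences among sham hearts were large. Named after their values were seen, these were the slow myosin heavy chain Myh7 at -2.00 (SE 0.51, adjusted p = 0.0735), larger in size than the Tcap difference, the M-band gene Myom2 at -0.85 (SE 0.25, adjusted p = 0.126) and Lmod2 at -0.56 (SE 0.15, adjusted p = 0.10). In the other direction Pdlim3 stood at 0.73 (SE 0.21, adjusted p = 0.116) and Synpo2 at 0.72 (SE 0.28, adjusted p = 0.253).

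The clock genes moved in the comparison in which Tcap was lowest. Of 9 tested clock output and Per genes 7 were lower in wake than in sleep sham hearts (median log2 -1.06), against 1.10% of all genes called lower. They were led by Dbp (-2.99, SE 0.28, adjusted p = 9.48e-05) and Nr1d2 (-1.81, SE 0.18, adjusted p = 0.000151). Tef, a relative of Dbp (-0.95), and Per1 (-1.06) were also lower (adjusted p = 0.00304 each). Of 5 genes of the Bmal1 arm Nfil3 (1.35, adjusted p = 0.000441) and Arntl (1.67, adjusted p = 0.00122) were higher, against 0.420% of all genes called higher. In MI hearts, where 0.0741% of all genes were called, Nr1d2 (-1.46, adjusted p = 0.0071) and Dbp (-1.80, adjusted p = 0.0279) were lower and Cry1 (1.11, adjusted p = 0.0071) higher. None of these 3 was called once the second of the wake MI hearts or the first or second of the sleep MI hearts was left out. The Dbp call was also lost when the first heart of wake MI, wake sham or sleep sham was left out, and with the replicate number as block (adjusted p = 0.0517), no level filter (0.0595), robust empirical Bayes (0.052) or the MI groups alone (0.0912). Nr1d2 was at -0.90 (adjusted p = 0.134) when its probe sets were averaged.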

How the data were processed

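Single-colour Affymetrix intensities were deposited by the authors as MAS5 signals on a linear scale, per the submitters' processing notes; no version or setting of MAS5 is stated there. The 2% trimmed mean was 150.1 on every array. The table holds 22690 probe sets (64 controls), of which GEO's platform annotation gives 20380 exactly 1 gene symbol, 691 several and 1555 none.

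A gene was read from its brightest single-symbol probe set, as log2(signal + 16). Genes were tested whose mean reached the 40th percentile of probe sets (signal 16.8). limma 3.58.1 in R 4.3.3 fitted 4 group means with an intensity trend (8 residual degrees of freedom, two-sided, Benjamini-Hochberg, called at adjusted p below 0.05). Exact tests of 3 against 3 hearts cannot go below p = 0.10 and were not used. Named genes were all members, up to 4 called genes of each list with the smallest adjusted p, and the 8 genes most and 4 least correlated with Tcap.

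The members and lists were chosen with earlier results of these data known. The fit was tested on simulated data. The main fit did not pair arrays by replicate number. Of 18 same-numbered pairs 5 had residual correlations above 0.1 (-0.17 to 0.25). Differently numbered pairs were not set beside them, so these values cannot decide whether arrays of a number share a batch. The arrays give no read depth, and their number limits the precision. Alternatives covered pseudocount, filter, normalization, probe sets, model options, a beta-actin covariate and left-out arrays.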

Additional observations from a re-analysis of the deposited data

Results flagged for a closer look

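The MI effect on Tcap differed by 0.62 on the log2 scale (SE 0.12) between wake and sleep hearts. It is listed because all 3 wake MI hearts were above the wake sham mean and all 3 sleep MI hearts below the sleep sham mean. The sleep MI and sleep sham signals overlapped, with a log2 difference of -0.11 (adjusted p = 0.576 in limma). The value of 0.62 rests on the same group means as the time-of-day pattern for which the genes were put forward. It was not tested for Tcap.

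The second Des probe set, 1426732_at, was below the level filter and entered none of the main comparisons. It entered only the alternative that averaged a gene's probe sets. Its signal was 14.0 to 30.7 in the 6 MI hearts (mean 21.8 ± 5.63, SD, n = 6) and 9.2 to 12.7 in the 6 sham hearts (10.6 ± 1.16, SD, n = 6). It is listed because a signal above the control hearts appeared in data outside the main comparisons.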

How the results depend on the processing

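Tcap kept its time-of-day direction under every alternative run, at -1.23 to -1.19 in sham and -0.62 to -0.54 in MI hearts (left-out arrays -1.29 to -1.18 and -0.63 to -0.56). Its MI effect over both times was 0.20 and no longer passed with no level filter (adjusted p = 0.0532) or no intensity trend (adjusted p = 0.0584), and 0.19 with the beta-actin covariate (adjusted p = 0.182). With left-out arrays it was 0.17 to 0.23. Its wake MI effect was 0.49 with the beta-actin covariate (adjusted p = 0.0516). The count of genes called over both times was 0 with no filter, no trend, the covariate or an adjusted p below 0.01, and 0 to 3 with left-out arrays. In wake hearts it was 0 with the covariate and 1 with no filter, quantile normalization, no trend, a fit of the compared groups alone, a block for the replicate number or an adjusted p below 0.01, and 1 to 2 with left-out arrays. With the replicate block Tcap in wake hearts kept its call and Ttn (0.31, adjusted p = 0.0514) lost it. For the sham time-of-day difference, the 3 probe sets of Ldb3 stood at 0.12, 0.11 and -0.45. Averaging a gene's probe sets turned this difference to -0.07 and the wake minus sleep MI effect of Ldb3 to 0.19. With the probe set 1426732_at, which is below the level filter, averaged in, it gave Des an MI effect of 0.33 over both times (adjusted p = 0.00249) and 0.38 in wake hearts (adjusted p = 0.0108). The covariate turned the wake minus sleep MI effect of Myot to 0.19. For the clock genes, the Bmal1-arm genes called in sham hearts were 4 of 5 with array weights. They were 1 with a filter at the 60th percentile, which Arntl did not pass. Beyond the filter and the averaging of probe sets, the cause of these shifts was not tested. The number of arrays, 3 a group, limits what small differences can pass.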
